A study of Mus musculus with 8 samples.

Results

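The levels of 8 genes for transcription factors and related regulators of the cerebellar granule neuron lineage were described in cells sorted from mouse medulloblastoma. The genes were Atoh1, Insm1, Neurod1, Nhlh1, Nhlh2, Neurod2, Prdm8 and Mab21l1, taken by name from the 22180 genes with a probe set of 1 gene symbol. A gene with several such probe sets is represented by its brightest over the 8 arrays, but each of these 8 genes had just 1. They are given from progenitor to postmitotic stage as textbooks place them, with Prdm8 and Mab21l1 last because their place is less settled. Sox2-positive and Sox2-negative cells were compared on 4 Affymetrix arrays each. Both fractions came from Patched1+/- mice (CD1 background) crossed to Sox2-eGFP reporter mice (B6), irradiated with 3 Gy as newborns and over 70 days old when their tumours were taken. The same depletion of CD45+ and Ter119+ blood cells preceded the sort of both fractions, and the labels set the groups apart by eGFP alone. Each array held RNA pooled from 3 tumours, so the p-values measure the spread between pools, and the number of arrays limits the precision.

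Granule neurons of the cerebellum arise from progenitors that divide in the external granule layer under Sonic hedgehog, leave the cell cycle, and migrate inward as young neurons. Atoh1, a basic helix-loop-helix (bHLH) factor, specifies these progenitors, and bHLH factors of the Neurod and Nhlh families follow as cells become neurons. Such factors pair with E proteins and bind the E-box, whose letters are CANNTG. Id proteins block the pairing, and Hes and Hey factors repress proneural genes downstream of Notch. Hedgehog-type medulloblastoma arises from granule neuron progenitors.

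All values are deposited log2 values, and a difference is Sox2-positive minus Sox2-negative. Sox2 itself averaged 5.94 ± 0.34 in the Sox2-positive and 4.30 ± 0.29 in the Sox2-negative pools (mean ± SD, n = 4 each), which fits the labels. Levels of different probe sets are not comparable with each other. Correlations between arrays were 0.981 to 0.987 among Sox2-positive, 0.973 to 0.984 among Sox2-negative and 0.942 to 0.968 between groups. All 8 genes had both group means above 5.80, the upper quartile of 1394 olfactory and vomeronasal receptor genes, which serve as a guide to dim values because these cells are not known to use them.

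Of the 8 genes, 6 were lower in Sox2-positive cells at an adjusted p under 0.05 and 0 were higher. Over all genes tested, 2.52% were called lower, and 8.47% were called in either direction (558 lower and 1321 higher; 847 and 1282 after quantile normalization). The groups did not overlap for 5 of the 8, all with Sox2-positive cells lower, against 6.07% of all genes. The median log2 difference of the 8 was -0.97, beside -0.03 over all genes. Array values are averages over many cells, so fewer cells of a type and less RNA per cell cannot be told apart. The genes were chosen with earlier results of these arrays known, so these counts describe them and do not test them as a group.

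**Figure D1:**
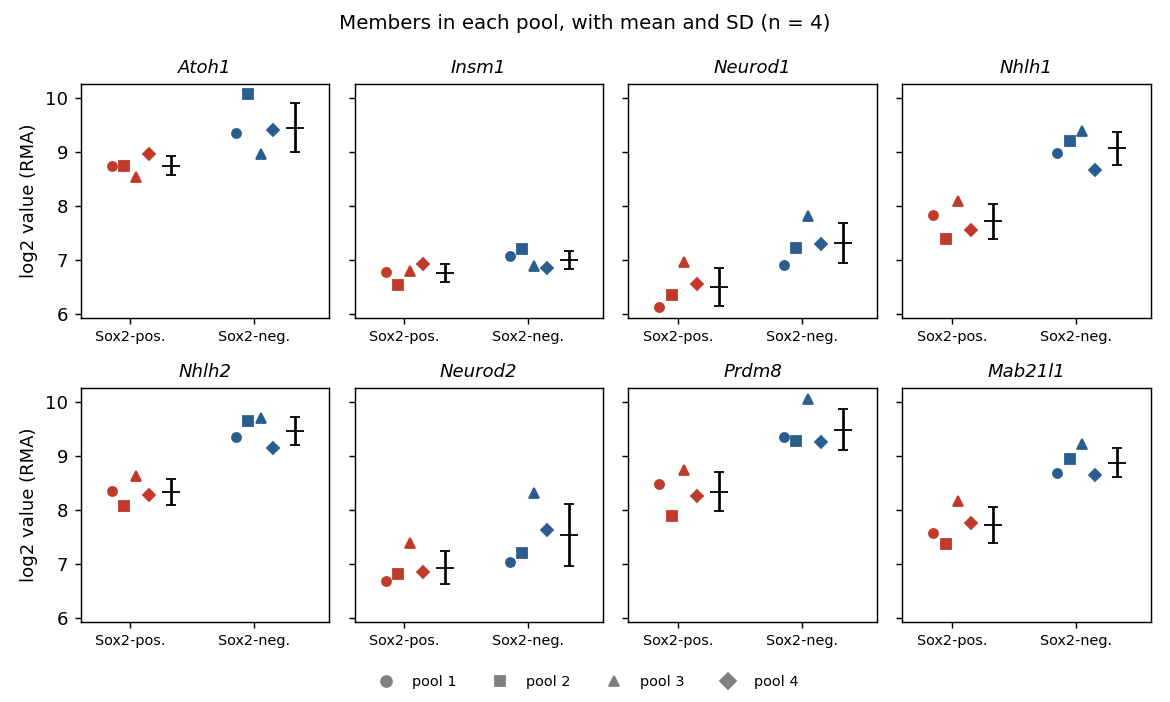
Deposited log2 values (y axis) of each gene in the 4 Sox2-positive pools (left, red) and the 4 Sox2-negative pools (right, blue); symbols mark the pool number and bars the mean and SD (n = 4). Nhlh1, Nhlh2, Prdm8, Mab21l1 and Atoh1 show no overlap between the groups, while Insm1, Neurod1 and Neurod2 overlap; heights are not comparable between panels.

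Atoh1, the factor of the progenitor stage, was at 8.74, 8.74, 8.54 and 8.96 in Sox2-positive pools 1 to 4. In Sox2-negative pools 1 to 4 it was at 9.36, 10.07, 8.97 and 9.41. Every Sox2-positive pool lay below every Sox2-negative pool, but the nearest values, 8.96 and 8.97, almost touched, and the top value came from Sox2-negative pool 2. The mean difference was -0.71 (SE 0.18, 95% interval -1.10 to -0.31; limma adjusted p = 0.0278), which left 0.613 of the Sox2-negative level. The Sox2-negative pools varied more (SD 0.46) than the Sox2-positive pools (SD 0.17). This call was among the less firm: the adjusted p was 0.0543, 0.0695 and 0.0868 when Sox2-positive pool 1, 2 or 3 was left out, 0.0565 and 0.0582 when Sox2-negative pool 1 or 4 was, and 0.115 when all 41345 probe sets were tested.

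Insm1 encodes a zinc finger factor that in the mouse brain acts when progenitors move towards their last, neuron-producing divisions. Its values were 6.78, 6.54, 6.79 and 6.92 in Sox2-positive pools, against 7.07, 7.20, 6.88 and 6.86 in Sox2-negative pools. The groups overlapped, since Sox2-positive pool 4 exceeded Sox2-negative pools 3 and 4. The difference of -0.24 did not pass the test (95% interval -0.48 to -0.01, adjusted p = 0.225), and it was the smallest of the 8.

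Neurod1, which granule neurons of the mouse need to differentiate and survive, was at 6.13, 6.35, 6.96 and 6.55 in Sox2-positive pools. It was at 6.91, 7.23, 7.82 and 7.29 in Sox2-negative pools. The groups overlapped by 1 pair of values, Sox2-positive pool 3 (6.96) lying above Sox2-negative pool 1 (6.91). Neurod1 fell by 0.82 on the log2 scale (SE 0.19, 95% interval -1.22 to -0.41, adjusted p = 0.0155), to 0.568 of the Sox2-negative level. Pools of equal number differed by -0.88 to -0.74, the narrowest such range of the 6 genes past the test. The call ended without Sox2-positive pool 2 (adjusted p = 0.0529) and when all probe sets were tested (0.0827).

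Neurod2, its close relative, acts later, in postmitotic neurons. It had values of 6.69, 6.81, 7.39 and 6.85 in Sox2-positive pools, against 7.04, 7.20, 8.32 and 7.63 in Sox2-negative pools. Pool 3 was the highest of both fractions, and the groups overlapped through it. The difference of -0.61 did not pass (SE 0.23, 95% interval -1.11 to -0.11, adjusted p = 0.146). With the pool number as a block it passed, at the same difference (adjusted p = 0.004), and 7 of the 8 genes were then called. The value was -0.35 without Sox2-negative pool 3, the smallest over the alternatives, and did not pass there.

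Nhlh1 and Nhlh2 are a pair of closely related bHLH genes switched on in newly formed neurons. Nhlh1 was at 7.83, 7.38, 8.10 and 7.55 in Sox2-positive pools, against 8.99, 9.21, 9.39 and 8.66 in Sox2-negative pools. No Sox2-positive pool came within 0.5 of a Sox2-negative one. Nhlh1 fell by 1.35 (SE 0.17, 95% interval -1.72 to -0.99, adjusted p = 0.000141), to 0.392 of the Sox2-negative level. Nhlh2 was at 8.36, 8.07, 8.64 and 8.28 in Sox2-positive pools, against 9.35, 9.65, 9.71 and 9.15 in Sox2-negative pools. It fell by 1.13 (SE 0.14, 95% interval -1.43 to -0.82, adjusted p = 0.000146), to 0.458 of that level. Both had their lowest Sox2-positive value in pool 2 and their lowest Sox2-negative value in pool 4.

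Prdm8 encodes a PR domain protein that, in the mouse cortex, represses genes together with the bHLH factor Bhlhe22. Its values were 8.48, 7.89, 8.74 and 8.26 in Sox2-positive pools, against 9.35, 9.29, 10.06 and 9.26 in Sox2-negative pools. The 3 lower Sox2-negative values lay within 0.1 of each other, with pool 3 apart from them. Prdm8 fell by 1.15 (SE 0.19, 95% interval -1.56 to -0.73, adjusted p = 0.0016), to 0.452 of the Sox2-negative level.

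Mab21l1 is a mouse relative of mab-21, a cell fate gene of Caenorhabditis elegans, and is needed for the mouse lens. It was at 7.57, 7.38, 8.17 and 7.77 in Sox2-positive pools, against 8.69, 8.95, 9.23 and 8.66 in Sox2-negative pools. The groups were clearly apart. Mab21l1 fell by 1.16 (SE 0.16, 95% interval -1.51 to -0.81, adjusted p = 0.000388), to 0.448 of the Sox2-negative level. By log2 difference, Nhlh1, Mab21l1, Prdm8 and Nhlh2 ranked 4, 9, 10 and 11 from the most negative of all 22180 genes. Neurod1 ranked 45, Atoh1 88, Neurod2 152 and Insm1 1947.

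**Figure D2:**
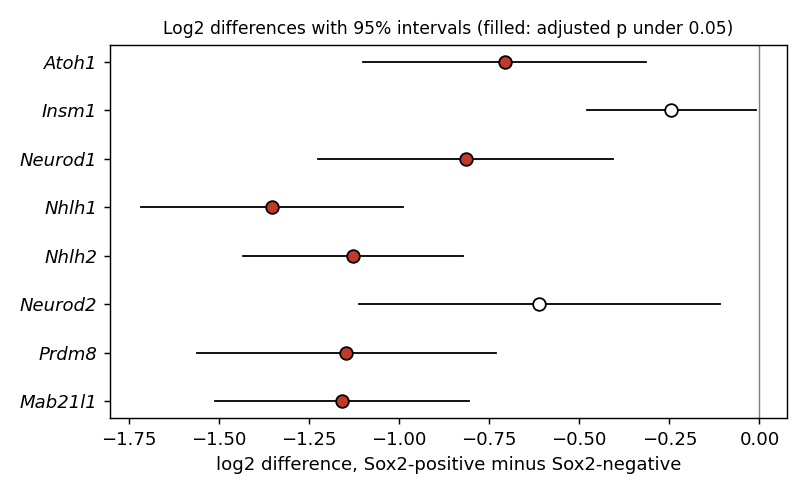
Log2 difference (x axis, Sox2-positive minus Sox2-negative) of each gene with its 95% interval from limma; filled points had an adjusted p under 0.05. All 8 points lie below 0, from -1.35 for Nhlh1 to -0.24 for Insm1, and the open points are Insm1 and Neurod2.

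Whether the other 7 genes differed between the fractions by more or less than Atoh1 was tested within arrays. For each array the Atoh1 value was subtracted from that of another gene. The 2 groups were then compared by a two-sided exact permutation test, adjusted over 7 comparisons. The smallest possible p was 0.0286 before adjustment, so after adjustment no gene could pass alone. For Nhlh1 the difference exceeded that of Atoh1 by -0.65 (exact permutation p = 0.114, adjusted p = 0.4). These Nhlh1 minus Atoh1 values had an SD of 0.45 in Sox2-positive and 0.58 in Sox2-negative pools. For Mab21l1, Prdm8 and Nhlh2 the excess was -0.45, -0.44 and -0.42 (exact permutation, adjusted p = 0.5, 0.6 and 0.5). Insm1 differed the other way, by 0.46 (exact permutation p = 0.0571, adjusted p = 0.4), and Neurod1 and Neurod2 by -0.11 and 0.10 (adjusted p = 0.886 for both, exact permutation). Within pools of equal number, Nhlh1, Nhlh2, Prdm8 and Mab21l1 were each lower relative to Atoh1 in 4 of 4 pairs (Nhlh1 by -0.87 to -0.50, Nhlh2 by -0.65 to -0.24, Prdm8 by -0.89 to -0.06 and Mab21l1 by -0.64 to -0.23). Insm1 was higher relative to Atoh1 in 4 of 4 pairs (0.33 to 0.67), while Neurod1 and Neurod2 went both ways. An exact paired permutation of 4 pairs cannot give a p under 0.125. Without Sox2-negative pool 3 the excess over Atoh1 shrank to -0.37 for Nhlh1, -0.18 for Nhlh2, -0.17 for Mab21l1 and -0.09 for Prdm8. None of the 7 passed. With 4 pools a group, any gene could pass only if most of the 7 reached the smallest possible p together. These tests therefore could not set a single gene apart from Atoh1, and no conclusion is drawn from their outcome. The order of the 8 differences is a description, and these tests do not show that the genes moved alike.

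In pool 3 of each fraction, Atoh1 and most of the other genes lay at opposite ends. Pool 3 had the highest value of its fraction for 6 of the 8 genes, which in both fractions were Neurod1, Neurod2, Nhlh1, Nhlh2, Prdm8 and Mab21l1. The same pools had the lowest Atoh1 values of their fractions, 8.54 for Sox2-positive and 8.97 for Sox2-negative cells. Pool 2 did not show this. Sox2-positive pool 2 lay below its group mean for all 8 genes and was the lowest for 5. In Sox2-negative pool 2, where Atoh1 was highest (10.07), Nhlh1, Nhlh2 and Mab21l1 were second highest of that fraction (9.21, 9.65 and 8.95). The 16 genes listed for migrating and young granule neurons had their highest mean level in pool 3 too. It was 8.17 for Sox2-positive and 8.58 for Sox2-negative cells, against at most 7.95 and 8.24 in the other pools. The 11 genes listed for mature granule neurons also peaked there, at 6.38 and 6.36 (other pools at most 6.13 and 5.96). In Sox2-positive cells alone, pool 3 was highest for astrocyte markers (7.82, other pools at most 7.31). The same held for E protein and Id genes (7.4, at most 7.26). Microglia markers were at 5.57 in Sox2-positive pool 3 (other pools at most 5.52) and at 5.65 in Sox2-negative pools 3 and 4. In Sox2-negative cells alone, pool 3 was highest for oligodendrocyte progenitor markers (6.25, at most 6.21) and endothelial markers (5.71, at most 5.7). The means over the 11 measured genes of Hedgehog-driven progenitors were 7.97 in Sox2-positive pool 3 and 8.05 in Sox2-negative pool 3, the lowest Sox2-negative value but not the lowest Sox2-positive one (7.89, pool 2). This was noticed in the data and was not tested. With both pools numbered 3 left out, an alternative chosen after seeing the data, 6 of the 8 genes were again called lower, Atoh1 at -0.80 (adjusted p = 0.0169).

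**Figure D3:**
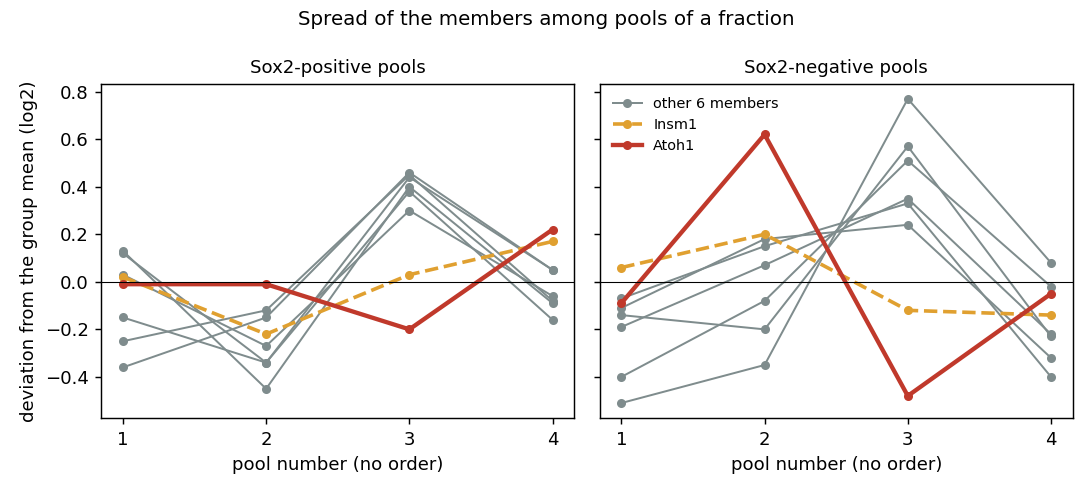
Deviation of each pool from its group mean in log2 units (y axis) by pool number (x axis, no order), with Sox2-positive pools on the left and Sox2-negative pools on the right. In both fractions the grey lines of 6 genes peak at pool 3, where Atoh1 (red) is lowest; Insm1 is dashed.

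Likeness of patterns was measured as the root mean square difference between 2 genes over the 8 arrays, after each was centred on its own mean. Nhlh2 and Mab21l1 were the closest pair of the 8 (0.118 log2 units), followed by Nhlh1 and Nhlh2 (0.137). Neurod1 and Neurod2 were each other's closest among the 8 (0.186). Among the 8, Atoh1 was closest to Insm1 (0.330) and farthest from Neurod2 (0.642). Of the genes outside the 8, Sv2b, a synaptic vesicle protein gene, was among the 3 nearest to Nhlh1, Nhlh2, Prdm8 and Mab21l1 (0.167, 0.134, 0.183 and 0.132). Reln, for the secreted glycoprotein reelin, was nearest to Nhlh1 and Prdm8 (0.154 and 0.130), and Zic2, a zinc finger factor of the granule lineage, was nearest to Nhlh2 (0.128). The nearest to Atoh1 were the Wnt receptor gene Fzd7 (0.116), the semaphorin gene Sema7a (0.138) and Prmt8 (0.140). For Neurod1 they were Zbtb18 (0.155), Kcnj3 (0.163) and Glce (0.167), and for Neurod2 Rab3a (0.160), Serpini1 (0.175) and Cemip (0.183). Sstr2 (0.135) for Nhlh2, Sphkap (0.166) for Prdm8, St18 (0.158) and Cemip2 (0.162) for Mab21l1 and Zic2 (0.225) for Nhlh1 completed these sets. The nearest to Insm1 were Hnrnpm (0.045), Scgb2b20 (0.050) and V1ra8 (0.059), small values that go with the narrow range of Insm1. Both the group difference and the pool numbers enter this measure, and so many genes were searched that close matches are found for any gene.

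The region from 250 bases before to 50 after the start site was in the RefSeq table (GRCm38.p6) for 6 of the 8 genes, all but Insm1 and Mab21l1. Nhlh1, Nhlh2 and Prdm8 fell furthest among the 6, and Neurod2 fell least (-0.61, not past the test), with Atoh1 next (-0.71). The regions of Nhlh1, Nhlh2, Prdm8 and Atoh1 are shown. They lie at chr1:172057547-172057846 (minus strand), chr3:102009895-102010194 (plus strand), chr5:98180619-98180918 (plus strand) and chr6:64728875-64729174 (plus strand), and are written 5′ to 3′ on the gene's strand with every E-box (CANNTG, which reads the same pattern on both strands) in capitals.
Nhlh1: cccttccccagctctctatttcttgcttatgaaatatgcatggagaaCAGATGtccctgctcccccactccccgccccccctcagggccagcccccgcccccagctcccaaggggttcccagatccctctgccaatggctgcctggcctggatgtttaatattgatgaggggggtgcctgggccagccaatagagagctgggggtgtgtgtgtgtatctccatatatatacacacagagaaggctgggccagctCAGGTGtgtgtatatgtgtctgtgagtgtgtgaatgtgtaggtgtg
Nhlh2: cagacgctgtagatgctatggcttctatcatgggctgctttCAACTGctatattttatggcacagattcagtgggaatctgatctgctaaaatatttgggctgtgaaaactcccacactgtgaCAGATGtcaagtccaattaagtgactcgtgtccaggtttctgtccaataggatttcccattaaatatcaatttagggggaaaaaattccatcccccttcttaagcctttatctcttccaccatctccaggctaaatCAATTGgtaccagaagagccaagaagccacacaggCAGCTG
Prdm8: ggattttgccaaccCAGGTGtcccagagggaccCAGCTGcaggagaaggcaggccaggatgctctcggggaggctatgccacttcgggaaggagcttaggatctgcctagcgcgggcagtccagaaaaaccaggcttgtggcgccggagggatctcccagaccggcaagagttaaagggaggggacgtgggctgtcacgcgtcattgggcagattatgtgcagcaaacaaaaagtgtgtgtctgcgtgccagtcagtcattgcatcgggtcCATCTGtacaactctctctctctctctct
Atoh1: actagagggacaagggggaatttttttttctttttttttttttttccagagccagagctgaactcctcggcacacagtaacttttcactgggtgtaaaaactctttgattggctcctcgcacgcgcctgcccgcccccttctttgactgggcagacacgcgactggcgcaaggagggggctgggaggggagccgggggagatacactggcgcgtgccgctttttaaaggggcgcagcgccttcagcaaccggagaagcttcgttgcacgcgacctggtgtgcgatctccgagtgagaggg

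The Nhlh2 region held 4 E-boxes, a number reached by 6.49% of the 32851 regions in the table. That of Prdm8 held 3, a number reached by 17.6%, as did that of Neurod2, the gene that fell least of the 6. Nhlh1 had 2, Neurod1 had 1 and Atoh1 had 0 in these windows, and 72.3% of all regions held at least 1. The form CAGATG, or on the other strand CATCTG, which overlaps CANNTG, was in 4 of the 6, those of Nhlh1, Nhlh2, Neurod2 and Prdm8, and in 17.2% of all regions. CAGCTG, also a form of CANNTG, was in 2 of the 6, Nhlh2 and Prdm8, and in 16.3% of all. The Gli motif TGGGTGGTC, searched on both strands, was in 0 of the 6 and in 0.253% of all. These are matches of letters and describe neither binding nor regulation.

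Partners and inhibitors of the bHLH factors were examined next. Of 7 E protein and Id genes, 1 was lower and 0 higher (2.52% of all genes were called lower), with a median log2 difference of 0.07. Tcf4, an E protein gene, fell by 0.35 (SE 0.09, adjusted p = 0.0353), but it no longer passed when any array other than Sox2-negative pool 3 was left out, when both pools numbered 3 were, or with all probe sets tested (adjusted p 0.0543 to 0.101). None of the 4 Id genes passed (differences between -0.185 and 0.35), the nearest being Id3 (0.35, limma adjusted p = 0.0771). Without Sox2-positive pool 4, 1 gene of this list was called, and it was not Tcf4. Of 10 other neural bHLH genes, 3 were lower and 0 higher, with a median of -0.08. Olig3, a factor of hindbrain progenitors, fell by 0.81 (adjusted p = 0.000595). The Neurod relatives Neurod6 and Neurod4 fell by 0.57 and by 0.42 (adjusted p = 0.0227 and 0.0114). Neurod6 was past the threshold no longer when pool 2, 3 or 4 of the Sox2-positive fraction, pool 3 of the Sox2-negative fraction or both pools numbered 3 were left out, or with all probe sets tested (adjusted p 0.0509 to 0.0989). Neurod4 had a Sox2-positive mean of 5.77, below the guide to dim values, and a fold against such a level is a poor measure of size.

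Relatives of the other 3 genes were tested too. In limma, of 6 such genes (Insm2, Mab21l2, Mab21l3, Prdm12, Prdm13 and Prdm16), 0 passed and 0 had an unadjusted p under 0.05. Without Sox2-negative pool 2, 1 passed, Mab21l3 (-0.36, adjusted p = 0.0437), whose levels were dim in both groups (5.06 for Sox2-positive and 5.21 for Sox2-negative cells). Mab21l2 had the largest difference, -0.46 (adjusted p = 0.374), with means of 6.37 ± 0.58 in the Sox2-positive and 6.83 ± 0.49 in the Sox2-negative fraction. The differences of Insm2, Prdm12, Prdm13, Prdm16 and Mab21l3 lay between -0.15 and 0.15. Of 6 repressors of neuronal fate, 2 were higher and 0 lower (median 0.12). These were Hey2 (log2 difference 1.18, adjusted p = 2.5e-05) and Hes5 (0.95, adjusted p = 0.0012). The dimmer probe set of Hes5 had a difference of -0.07. With the pool number as a block Hey1 was lower as well (-0.37, adjusted p = 0.0489).

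Other transcription factors of the granule lineage were mostly lower as well, 11 of 18 lower and 1 higher, with a median of -0.49. Zic2 fell by 1.09 (adjusted p = 2.73e-05) and Pax6, a homeobox factor of granule progenitors and neurons, fell by 0.90 (adjusted p = 9.61e-05). The higher gene was Etv1, an ETS factor of maturing granule neurons (log2 difference 1.37, adjusted p = 3.02e-05), while its other, dimmer probe set differed by 0.43 and did not pass among all probe sets (adjusted p = 0.103). With the pool number as a block Meis2 was also higher (0.38, adjusted p = 0.0177). Of the 11 genes of Hedgehog-driven progenitors, 5 were lower and 1 higher (median -0.47). The calls in this list numbered 4 to 8 over the 16 alternatives. Gli1 and Gli2, among the 5, did not pass with all probe sets tested (limma adjusted p = 0.151 and 0.0779). Mycn, Sfrp1 and Boc fell by 0.79, by 0.75 and by 0.65, and the cyclin gene Ccnd1 was higher by 0.58 (adjusted p = 0.0028). The Sox2-positive mean of Mycn, 5.59, lay below the guide to dim values, so its difference is a poor measure of size. With the pool number as a block Ccnd2 was lower too (-0.37, adjusted p = 0.0339). Of the 16 genes of migrating and young granule neurons, 6 were lower and 1 higher (median -0.21). Cntn2, Stmn2 and Rbfox3 fell by 1.49, by 0.94 and by 0.73 (Stmn2 not past the test with all probe sets, adjusted p = 0.0651), and Astn1, for a protein of glia-guided migration, was higher by 0.68. Of 11 genes listed for mature granule neurons, 2 were lower and 2 higher (median -0.09). Vsnl1 and Kcnd2 were higher by 2.72 and 1.79, and Reln fell by 1.38. Gabra6, the receptor subunit that defines mature granule neurons, had a mean of 4.64 in the Sox2-positive and 4.65 in the Sox2-negative fraction, below the guide to dim values.

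**Figure D4:**
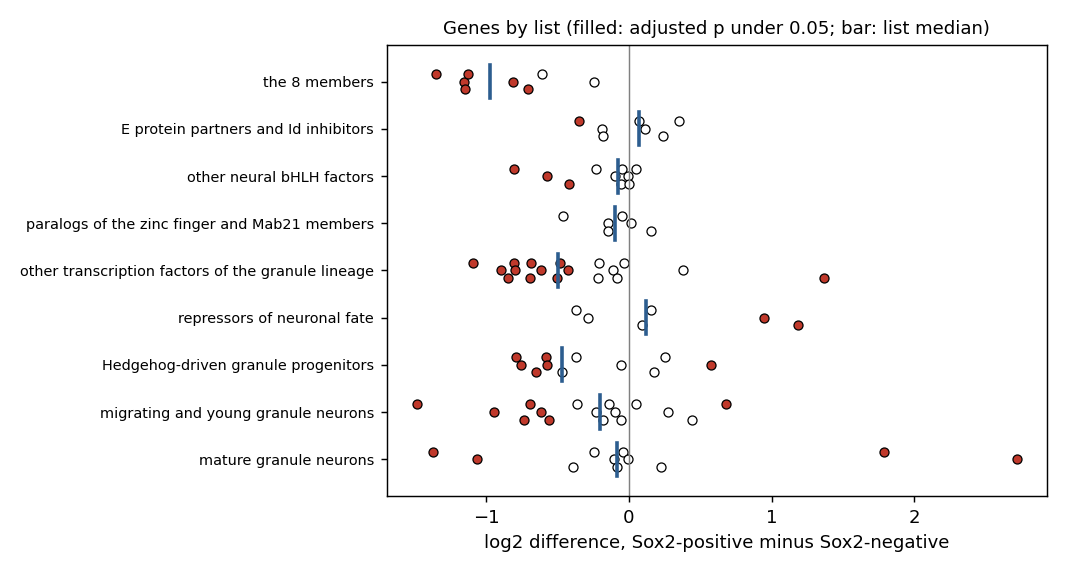
Log2 difference (x axis, Sox2-positive minus Sox2-negative) of each measured gene in 9 lists (y axis); filled points had an adjusted p under 0.05 and the blue bar is the list median. The 8 genes described here have a median of -0.97, and the granule lineage factors a median of -0.49.

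Markers of oligodendrocyte progenitors and astrocytes differed between the fractions in the opposite direction to the 8 genes. All 9 oligodendrocyte progenitor markers were higher in Sox2-positive cells, with a summed level of 6826 to 10044 on the linear scale in Sox2-positive and 872 to 1063 in Sox2-negative pools. The largest differences were those of Ptprz1 (4.76), Tnr (4.02) and Olig1 (4.01). Their Sox2-negative means (5.83, 5.82 and 5.74) lay close to the guide to dim values of 5.80, that of Olig1 alone below it. The sizes and order of these differences are therefore uncertain. Of 7 astrocyte markers 5 were higher and 0 lower (1261 to 2246 in Sox2-positive and 614 to 715 in Sox2-negative pools), led by Slc1a3 (2.16), Aqp4 (1.39) and Aldoc (1.06). The lowest deposited value of any probe set is 2.51, so a level above 0 does not show that a marker is present. The part of the oligodendrocyte progenitor and astrocyte markers in the lower levels of the 8 genes was not tested. The 8 microglia and 4 endothelial markers had 0 calls in limma (1 and 0 at an unadjusted p under 0.05), and 5 of the 8 and 2 of the 4 lay below the guide to dim values in both groups. Summed levels were 433 to 453 in Sox2-positive and 369 to 486 in Sox2-negative pools for microglia, and 180 to 210 and 195 to 210 for endothelium. The largest differences were those of Ptprc (-0.23) and Cldn5 (-0.17). Of 4 Purkinje cell and interneuron markers 1 was higher, Gad1 (0.43, adjusted p = 0.0292), at dim levels of 5.16 for Sox2-positive and 4.73 for Sox2-negative cells. It did not pass when pool 2, 3 or 4 of the Sox2-positive fraction, pool 1 or 3 of the Sox2-negative fraction or both pools numbered 3 were left out, or with all probe sets tested (adjusted p 0.0691 to 0.148), nor was it among the genes tested once the dimmest were left out.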

How the data were processed

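Log2 values per probe set were measured on 8 Affymetrix arrays. Per the submitters' processing notes, the software behind the deposited log2 values was Affymetrix Expression Console 1.2.0.20, with the RMA method of background correction, normalization between arrays and probe summary. RMA compresses differences of dim genes and evens out total RNA per cell. Their range, 2.51 to 13.6, shows the log2 scale. The genome build behind the probe sets is not given in the sources used here.

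Of 41345 probe sets, 23521 had 1 gene symbol in the platform annotation, 1814 had several and 16010 were unnamed here. A probe set annotated to Neurod1 and another gene together was not used. The brightest probe set stood for each of 22180 genes, with no filter on dim genes. The test was limma's (version 3.58.1, R 4.3.3; lmFit and eBayes with the group alone as a term), two-sided, with Benjamini-Hochberg adjustment over all genes and a threshold of 0.05. The procedure was tested on simulated data.

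The 8 genes and 13 gene lists were chosen with earlier results of these data known. Genes named were the 8, Sox2, their relatives, the 3 nearest patterns of each (predicted genes left out), and from each list up to 3 called genes of largest difference, or else the single largest difference. The other genes named (Ccnd1, Ccnd2, Meis2, Hey1, Astn1, Gabra6, Id3, Gli1, Gli2) were chosen after their values were seen.

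Pool numbers 1 to 4 recur in the labels of both fractions, which do not state a shared origin. After subtraction of the group means, values correlated between arrays of equal number at 0.164, 0.114, 0.177 and 0.241 over all genes, each above 0.1, so the numbers were taken as pairs. The highest correlation between different numbers was 0.161, above that of number 2 and barely below that of number 1. The pairing is therefore not sure, least of all for these 2 numbers. The unblocked fit was kept, and the blocked value is given where it changed a call of the 8 genes or the count of a list. The other alternatives left out each array in turn, used array weights, a variance trend, quantile normalization, the mean of probe sets, a filter on the dimmest 25% of genes (all 8 genes were kept) or all probe sets.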

Additional observations from a re-analysis of the deposited data

Results flagged for a closer look

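Prdm8 in Sox2-negative cells had 1 value apart from the rest: pool 3, at 10.06, against 9.26 to 9.35 in the other 3 pools. Its gap to the nearest value was 0.888 of the group's range, above Dixon's 95% critical value for 4 samples. Of the 16 sets of 4 values examined, this was the only one past that value, and chance flags about 1 in 20. Without that pool the difference of Prdm8 was -0.96 (limma adjusted p = 0.0025).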

How the results depend on the processing

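Over 16 alternatives, of which 1 (both pools numbered 3 left out) was chosen after seeing the data, all 8 genes kept a negative log2 difference in each. Nhlh1, Nhlh2, Prdm8 and Mab21l1 passed the test in all 16 (highest limma adjusted p 0.0039, 0.0035, 0.0203 and 0.0075), Neurod1 in 14, Atoh1 in 10, Neurod2 in 1 and Insm1 in 0. The pool number as a block, a pairing taken from the data, moved Neurod2 past the test (-0.61, adjusted p = 0.004) and changed no other call of the 8; the calls among the listed genes went to 53 with the block, against 50 without it. Testing all probe sets ended the calls of Atoh1 (-0.71) and Neurod1 (-0.82). That setting adjusts over more features and also refits limma's variance estimates on all of them, so both parts of the test changed. Leaving out 1 array gave -0.87 to -0.50 for Atoh1 and -0.97 to -0.65 for Neurod1. The count of lower genes, 558, was 847 after quantile normalization and 309 to 591 with 1 array left out (309 without Sox2-positive pool 2, 361 without Sox2-positive pool 4 and 357 without Sox2-negative pool 1). With all probe sets tested, 361 of 41345 probe sets were lower, a count of probe sets and not of genes. Setting a gene against Atoh1 gave values that moved by less than the spread between pools when an array was left out, but by over 1.5 times for Nhlh1 (-0.84 to -0.37), Nhlh2 (-0.59 to -0.18), Prdm8 (-0.71 to -0.09), Mab21l1 (-0.67 to -0.17), Neurod1 (-0.34 to 0.22) and Neurod2 (-0.23 to 0.51), with Insm1 at 0.32 to 0.58. No test against Atoh1 passed under the other settings, where again no gene could pass alone. With 3 pools against 4, that test was not run. The table gives no detection call, so signal over background is judged only by the guide to dim values.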
